A study of Mus musculus with 9 samples.

Results

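Retinoic acid acts through nuclear receptors, and the genes described here are 4 of these receptors and 4 genes known to respond to them. The receptors were Rara, Rarg, Rxra and Rxrb, and the response genes were Dhrs3, Tgm2, Cd38 and Asb2. They were chosen by gene symbol with no threshold on any measured value, and they made up 8 of the 24364 named genes of the series. The data are polyA RNA sequencing of GFP+ cells, sorted from bone marrow (BM) of mice with acute promyelocytic leukemia (APL). The 9 libraries comprised 3 of mice treated with all-trans retinoic acid (ATRA), 3 of mice treated with arsenic trioxide (ATO) and 3 controls that received neither drug. ATRA was injected at 10 mg/kg and ATO at 4 mg/kg, each daily into the peritoneum for 6 days. All groups shared the same leukemia: cells of hMRP8-PML/RARα transgenic FVB N/J mice, labelled with the GFP retrovirus MigR1 and grown in syngeneic recipients. The transgene joins human PML to human RARA under a myeloid promoter, so every library, controls included, came from cells carrying the fusion. The sources do not say whether controls were injected with solvent, so injection and drug cannot be told apart. Each sample is stated to have 3 biological replicates, but the labels do not tie a library to a separate animal, and p-values measure the spread between these libraries.

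Retinoic acid receptors (RAR) bind DNA as heterodimers with retinoid X receptors (RXR). Without ligand the pair recruits corepressors to its target genes, and ligand exchanges these for coactivators. In APL the PML/RARα fusion keeps the DNA and ligand binding parts of RARα and holds many such targets repressed. ATRA binds the RARα part of the fusion, whereas arsenic binds the PML part. In human APL cells, ATRA is known to induce TGM2, CD38, DHRS3 and ASB2, so the question was whether these genes answered ATRA in the mouse cells, and whether any answer was particular to ATRA.

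A RAR-RXR pair recognizes 2 copies of a 6-base core, AGGTCA or its variant GGGTCA or its variant AGTTCA or its variant GGTTCA, in the same orientation, with 5 bases (DR5) or 2 bases (DR2) between them. Both strands within 10000 bases of the annotated gene start were searched in mm9 for 7 members, for Rarb and for Cyp26a1, a textbook retinoid target. Tgm2 was not searched. The matches are shown because they are the letters a retinoid receptor could read near these genes. In each, the 2 cores are in capitals and the spacer is in lower case.
Dhrs3 DR5, intron, chr4:144488278-144488294, plus strand: GGGTCAcagagAGGTCA
Rarg DR5, intron, chr15:102081248-102081264, minus strand: GGTTCAaagtgAGGTCA
Rxrb DR5, exon, chr17:34173785-34173801, minus strand: AGGTCActcaaAGGTCA
Rarb DR5, intron, chr14:17641954-17641970, minus strand: GGTTCAtggttGGGTCA
Cyp26a1 DR5, between genes, at -24 bases from the start, chr19:37772266-37772282, minus strand: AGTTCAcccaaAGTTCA
Cyp26a1 DR5, between genes, at -1891 bases from the start, chr19:37770399-37770415, plus strand: GGGTCAcaggcGGGTCA
Rarg DR2, between genes, chr15:102090904-102090917, plus strand: AGGTCAgaGGGTCA
Cd38 DR2, intron, chr5:44265660-44265673, minus strand: GGTTCAgaGGTTCA
Cyp26a1 DR2, between genes, chr19:37777001-37777014, minus strand: GGTTCAcaGGGTCA

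Matches of this kind are frequent. Of 22035 protein-coding genes, 7.37% had a DR5 and 22.9% a DR2 within the same distance. Dhrs3, Rarg and Rxrb held a DR5, and Rarg and Cd38 a DR2. The DR5 of Dhrs3, Rarg and Rxrb lay 5556, 6692 and 5036 bases downstream of the annotated start. That of Rarb lay 9419 bases downstream, near the edge of the window, and promoters further inside a gene were not searched separately. Neither pattern was matched in the window of Rara, Rxra or Asb2, which says only that these letters are not there. A match is a description of sequence, and binding was not measured.

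Total reads on genes ran from 12192491 (ATO 3) to 25511738 (ATO 2), and 13757 to 15397 genes had a read in a library. Levels are given as scaled reads, which are whole reads divided by a size factor computed over all 9 libraries. Changes are log2 fold changes of scaled reads plus 0.5, from limma over the 12101 genes that reached 10 scaled reads in 3 or more libraries. All 8 members were among these. Cd38 passed through the controls with ATO 1 and 2, and Asb2 with exactly 3 libraries (control 1, control 2 and ATO 2). A gene passed the test at a Benjamini-Hochberg adjusted p under 0.05 with a fold change over 1.5. The median SE was 0.23, and over all tested genes the median log2 change was -0.01 in each comparison. The sorted cells had the markers of promyelocytes and myeloid cells in every library: none of 10 was at 0, and their summed level was 657400 to 745200 with ATRA, 688400 to 976200 with ATO and 514200 to 704100 in controls.

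With ATRA, 2 of the 8 members passed the test, and both were lower: Tgm2 and Cd38. None was higher. Over all tested genes 4.26% were called lower and 1.34% higher in this comparison. With ATO, the same pair, Tgm2 and Cd38, was lower and Rarg was higher, against 8.55% of all tested genes called lower and 6.13% higher. In ATRA against ATO, no member passed, and neither did any of the 12101 tested genes (0%) by limma or edgeR. That last comparison had 551 genes at an unadjusted p under 0.05 with the same fold change, and DESeq2 called 72 genes.

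**Figure D1:**
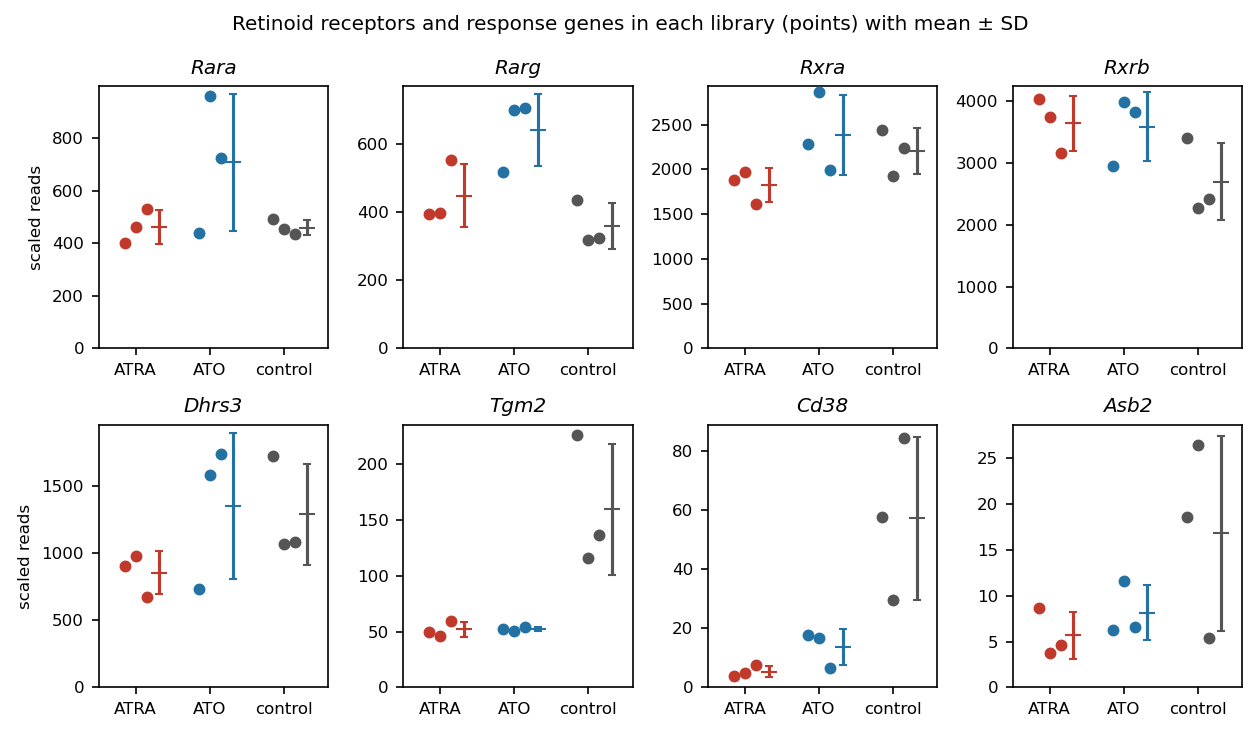
Scaled reads (vertical axis, from 0, one scale per gene) of the 8 members in the ATRA, ATO and control libraries. Points are the 3 libraries of a group in the order of their numbers, and the bar beside them is the mean ± SD. Tgm2 sits between 46.4 and 59.5 with either drug and between 116 and 226 in the controls, while the Rara, Rxra and Rxrb points of each drug overlap those of the controls.

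Among the receptors, Rara encodes RARα, the receptor whose gene is fused in APL. The mouse Rara gene lies on chromosome 11 (98789132 to 98836256 in mm9, plus strand). It had 399.7, 462 and 529 scaled reads with ATRA, against 492, 453 and 435 in controls. These ranges overlapped, and the log2 change was 0.00 ± 0.25 (SE; 95% interval -0.54 to 0.55). With ATO it had 438, 963 and 724, so ATO 1 was level with the controls and ATO 2 and ATO 3 were above them. The ATO change of 0.55 ± 0.25 did not pass the test (limma adjusted p = 0.139), but it was 0.86 with an adjusted p of 0.0255 without ATO 1. Reads of the human RARA part of the transgene that align to the mouse gene cannot be separated in these values.

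Rarg, on chromosome 15 (102065369 to 102087948, minus strand), encodes RARγ, which in mice is known for its part in hematopoietic stem cells. It had 519, 700.2 and 707 scaled reads with ATO, against 438, 318 and 324 in controls. Every ATO library was above every control, and the rise was 0.84 ± 0.21 on the log2 scale (limma adjusted p = 0.0255). The ATRA libraries had 394, 398 and 555, with the first pair inside the range of the controls and ATRA 3 above it. The ATRA change of 0.32 ± 0.21 did not pass (adjusted p = 0.451). The call with ATO rested on each of several libraries: the adjusted p was 0.0884 without ATO 2, 0.087 without ATO 3, 0.0548 without control 2 and 0.12 without control 3, with changes of 0.75 to 0.77.

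Rarb encodes RARβ, the receptor gene that retinoids are best known to induce, and it was near the limit of detection. Its reads were 0, 0 and 1 with ATRA, 0, 0 and 1 with ATO, and 2, 7 and 3 in controls, so it was too low to be tested. Each drug-treated library was below each control. Fitted with no filter on low values, its adjusted p was 0.0657 for ATRA and 0.0586 for ATO.

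Neither RXR gene with reads passed the test with either drug. Rxra, on chromosome 2 (27531960 to 27618477, plus strand), encodes RXRα and had 1877, 1977 and 1609 scaled reads with ATRA, 2282, 2870 and 1999 with ATO and 2446, 1932 and 2244 in controls. All 3 ATRA libraries were below the lowest ATO library, ATO 3, and they overlapped the controls through control 2. The log2 changes were -0.28 ± 0.18 with ATRA and 0.10 ± 0.18 with ATO, and neither passed (adjusted p = 0.43 and 0.708). With the trend of level on gene length removed, the limma changes were -0.0073 with ATRA and 0.46 with ATO (adjusted p = 0.984 and 0.0478), the ATO change being under the fold of 1.5. That setting also moved the median change over all genes, to 0.12 with ATRA and 0.13 with ATO. Rxrb, on chromosome 17 (34168757 to 34175338, plus strand), encodes RXRβ. It had 4032, 3741 and 3156 scaled reads with ATRA, 2951, 3979 and 3827 with ATO and 3410.0, 2267 and 2420.0 in controls. Control 1 lay among the treated libraries and the other controls below all of them. The changes were 0.45 ± 0.20 with ATRA and 0.42 ± 0.20 with ATO (adjusted p = 0.236 and 0.146), and the ATO change passed the test only without control 1 (0.60, adjusted p = 0.0329). Rxrg, which encodes RXRγ, had no read in any of the 9 libraries, a count that allows up to 3 reads in each.

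Of the response genes, Dhrs3 encodes a reductase that turns retinaldehyde back to retinol and so limits retinoic acid formation. It lies on chromosome 4 (144482730 to 144518112, plus strand). Dhrs3 had 906, 981 and 673 scaled reads with ATRA, all below the lowest control, against 1721, 1065 and 1079 in controls. The log2 change of -0.57 ± 0.31 nevertheless did not pass (adjusted p = 0.333), with control 1 far above the other controls. With ATO it had 729.5, 1584 and 1736, a range that held the controls, and the log2 change was 0.01 ± 0.31.

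Asb2, on chromosome 12 (104559352 to 104594211, minus strand), encodes the substrate-binding part of a ubiquitin ligase that degrades filamins in differentiating myeloid cells. It was almost silent here. Whole reads were 9, 4 and 5 with ATRA, 6, 16 and 4 with ATO and 19, 26 and 6 in controls. Control 3 lay with the treated libraries and the other controls above them. The log2 changes of -1.30 ± 0.60 with ATRA and -0.80 ± 0.60 with ATO did not pass (adjusted p = 0.261 and 0.355), and a change as large as 2.61 downward with ATRA is inside the 95% interval. The control left out moved the size of the change: with ATRA it was -0.85 without control 2 and -1.95 without control 3, and with ATO it was -0.35 without control 2 and -1.44 without control 3, none of which passed.

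Tgm2 encodes transglutaminase 2, an enzyme that crosslinks proteins and is strongly induced by ATRA in human APL cells. It lies on chromosome 2 (157942138 to 157972172, minus strand). Scaled reads were 49.85, 46.4 and 59.5 with ATRA and 52.0, 50.8 and 54.15 with ATO, against 226, 116 and 137 in controls. Every treated library was below every control, and the 6 treated libraries spanned only 46.4 to 59.5 scaled reads. Tgm2 fell by 1.56 on the log2 scale with ATRA (SE 0.28, limma adjusted p = 0.00533) and by 1.54 with ATO (SE 0.28, adjusted p = 0.00532). Some of its exons overlap those of Rprd1b on the other strand, and without a stated use of strand in the counting, reads there cannot be told apart. Rprd1b had changes of -0.02 ± 0.16 with ATRA and 0.05 ± 0.16 with ATO. Tgm2 passed in both comparisons under all 24 alternative settings, with changes of -1.86 to -1.28 with ATRA and -1.76 to -1.26 with ATO. These settings are not independent. Leaving out a library of the other drug keeps the estimate, and a gene that passed the adjusted test cannot fail by unadjusted p.

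Cd38 encodes a surface enzyme that consumes NAD and serves as a differentiation marker in human leukemia cells given ATRA. It lies on chromosome 5 (44260048 to 44303614, plus strand). Whole reads were 4, 5 and 8 with ATRA and 17, 23 and 4 with ATO, against 59, 29 and 94 in controls. Scaled, they were 3.83, 4.73 and 7.44 with ATRA, 17.7, 16.7 and 6.56 with ATO and 57.6, 29.5 and 84.45 in controls. All treated libraries were below all controls, and ATO 3 lay among the ATRA libraries. Cd38 fell by 3.23 on the log2 scale with ATRA (SE 0.51, limma adjusted p = 0.00225), and this passed in all 23 alternatives that tested it. With ATO it fell by 2.02 (SE 0.51, adjusted p = 0.0243), but the adjusted p was 0.0515 without ATO 2, 0.0876 without ATO 3 and 0.132 without control 3, with changes of -2.22, -1.58 and -1.68. The count of members called with ATO was therefore 1, Tgm2 alone, when any one of those libraries was left out.

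**Figure D2:**
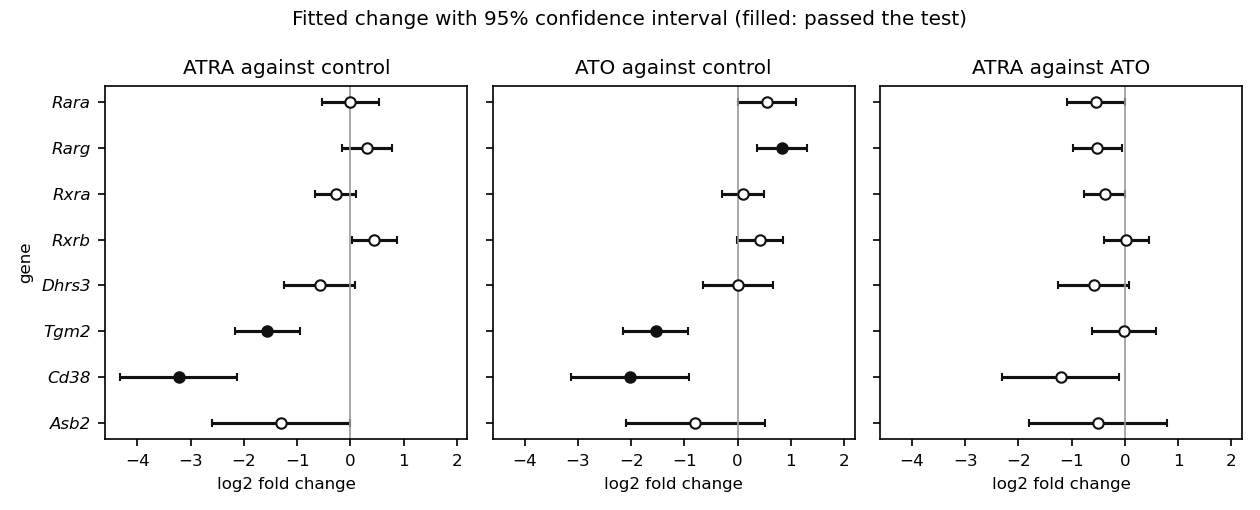
Log2 fold changes (horizontal axis) of the 8 members in ATRA against control, ATO against control and ATRA against ATO, with 95% confidence intervals and filled points for genes that passed the test. Tgm2 and Cd38 are filled on the low side for both drugs, Rarg is filled on the high side for ATO, and no point is filled in ATRA against ATO.

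Whether a response was particular to ATRA was asked of the difference between the drugs, since both share the same controls. No member differed by this test. For Tgm2 the difference was -0.02 ± 0.28 (95% interval -0.63 to 0.59), so a difference of more than 0.63 either way lies outside the interval. Cd38 was lower with ATRA than with ATO by a log2 difference of -1.21 (SE 0.51, 95% interval -2.31 to -0.10), with an unadjusted p of 0.0346 and an adjusted p of 0.745 in limma. Its adjusted p was 0.0444 when the library of each group with the steepest trend of level on gene length (ATRA 3, ATO 3 and control 2) was left out, a setting added after the data were seen. For Rara the difference was -0.55 ± 0.25 and for Rarg -0.52 ± 0.21 (adjusted p = 0.78 and 0.725), both lower with ATRA. The interval for Rarg was -0.98 to -0.06. Rxra differed by -0.38 ± 0.18, Dhrs3 by -0.58 ± 0.31, Asb2 by -0.51 ± 0.60 and Rxrb by 0.03 ± 0.20, each with an adjusted p of at least 0.78. These intervals do not show that the drugs act alike on the members.

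Most tested markers of cell types other than promyelocytes moved in the same direction as Tgm2 and Cd38. Over all tested genes 4.26% were called lower with ATRA and 8.55% with ATO. In bulk RNA, fewer cells of a type and less RNA per cell cannot be told apart. Stromal markers had a summed level of 47.3 to 83.7 with ATRA and 54.4 to 62.4 with ATO, against 705 to 959 in controls, and 6 of 7 tested were lower with each drug. Among them the chemokine gene Cxcl12 had at most 2.08 scaled reads in treated libraries, the collagen gene Col3a1 was at 0 in all 3 ATRA libraries, and the matrix gene Bgn was at 0 in all 3 ATO libraries. Macrophage markers summed to 6000.0 to 8384 with ATRA, 6581 to 10140.0 with ATO and 9471 to 17040.0 in controls. Of 12 tested, 7 were lower with ATRA and 9 with ATO, including the complement genes C1qa, C1qb and C1qc. Adgre1, another of that list, was higher with ATO. Cd68 and Vcam1 of that list passed with neither drug, with changes of 0.08 and 0.28 with ATRA and 0.49 and -0.15 with ATO. T and NK cell markers summed to 180.2 to 354 with ATRA and 225 to 260 with ATO, against 587 to 1333 in controls (10 and 11 of 14 lower), with the NK receptor gene Ncr1 at 0 in all 3 ATO libraries. Cd5 and Lck of that list had positive changes that did not pass, 0.01 and 0.23 with ATRA and 1.17 and 0.33 with ATO. B and plasma cell markers summed to 127.5 to 190.2 with ATRA and 118 to 192 with ATO, against 746.5 to 1064 in controls (3 of 6 lower with each). Endothelial markers summed to 273 to 399 with ATRA and 277 to 407 with ATO, against 616 to 1025 in controls (3 and 4 of 6 lower). Markers of eosinophils, basophils and mast cells summed to 485.5 to 665 with ATRA and 709 to 781 with ATO, against 2528 to 5187 in controls (7 of 8 lower with each). Between 0 and 5 genes of each list were at 0 in a treated library, and 0 to 2 in a control. The libraries were of cells sorted for GFP, the retroviral label of the leukemia cells, and the purity of the sort was not measured here. Several of these cell types are known to express Tgm2 or Cd38, and their part in the fall of either gene was not tested.

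**Figure D3:**
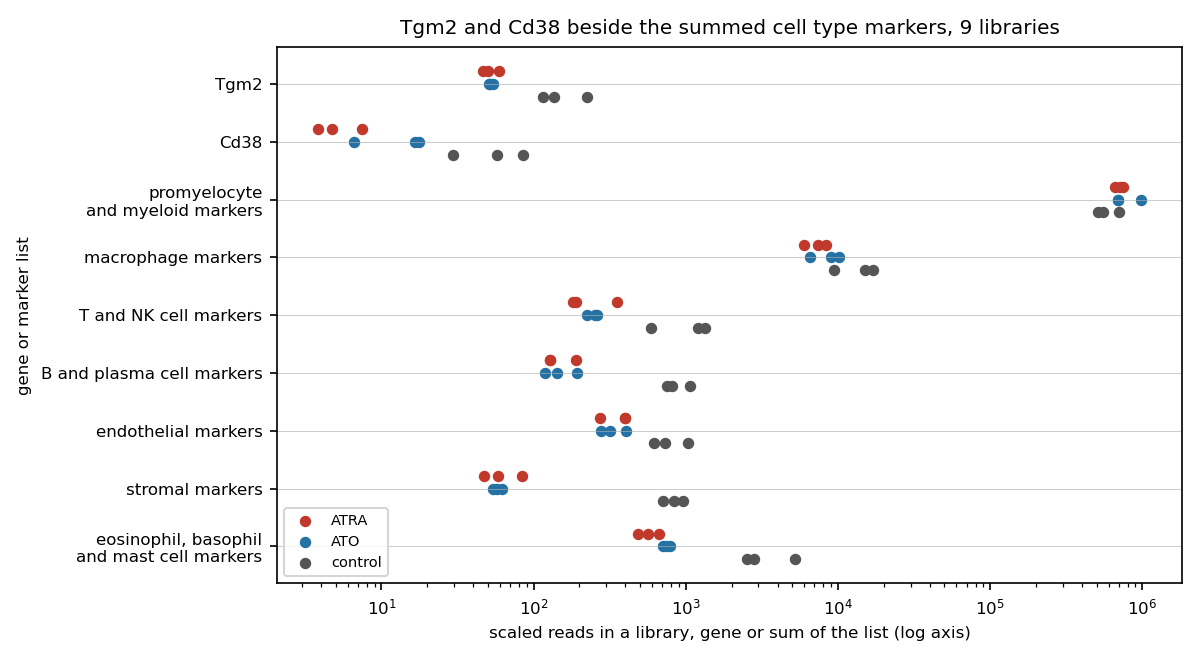
Scaled reads in each library (horizontal axis, log scale) for Tgm2, for Cd38 and for the sums of 7 marker lists, with 3 ATRA, 3 ATO and 3 control points per row. Tgm2, Cd38 and the stromal, T and NK, B and plasma, endothelial, and eosinophil, basophil and mast cell sums are lower in all 6 treated libraries, while the macrophage sums of ATO and control overlap and the lowest promyelocyte and myeloid sum is 514200 (control 3).

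The other retinoid response genes moved in both directions. Of 28 genes in that list, 20 were tested, and 16 of these were not members. Of the 16, 1 was higher and 2 were lower with ATRA, and 1 was higher and 3 were lower with ATO. Over all tested genes 1.34% were higher and 4.26% lower with ATRA, and 6.13% and 8.55% with ATO. Over the 20 the median log2 change was -0.01 with ATRA and -0.40 with ATO, against -0.01 over all tested genes with each drug. Irf1, an interferon-regulated transcription factor gene, had 648, 839.5 and 1415 scaled reads with ATRA, against 418, 523 and 432 in controls. Every ATRA library was above every control, and Irf1 rose by 1.01 on the log2 scale (SE 0.26, limma adjusted p = 0.0361). With ATO its change was 0.08 ± 0.26, and the difference between the drugs, 0.93 ± 0.26, had an adjusted p of 0.387. Irf1 was highest in ATRA 3, and so were Usp18, Uba7 and Tnfsf10 of the same list. In ATRA 1, 2 and 3, Usp18 had 31.63, 35.96 and 504.2 scaled reads. Uba7 had 700.7, 717.4 and 1145, and Tnfsf10 34.51, 28.39 and 95.82. Cebpe went the other way, with 5119, 4499 and 2760. Usp18, Uba7, Tnfsf10 and Cebpe did not pass with ATRA. In ATO 1, 2 and 3, Usp18 had 12.49, 14.51 and 8.205, Uba7 454.8, 497.8 and 436.5, and Tnfsf10 28.1, 18.87 and 11.49. For Irf1, Usp18, Uba7 and Tnfsf10 every ATRA library was above every ATO library. Against controls, Uba7 was above with ATRA, while Usp18 and Tnfsf10 were below with ATO. The ATRA against ATO changes of Usp18, Uba7 and Tnfsf10 were 2.82, 0.85 and 1.29 (limma adjusted p = 0.416, 0.334 and 0.624). The part of ATRA 3 in the rise of Irf1 was not tested. Id2, an inhibitor of helix-loop-helix factors, fell by 2.10 with ATRA and by 1.64 with ATO, to 203 ± 50.6 and 285 ± 104 scaled reads, against 875 ± 224 in controls (SD, n = 3 each). Itgax, which encodes the integrin CD11c of dendritic cells and macrophages, fell by 1.81 with ATRA and by 1.77 with ATO. Nrip1, a nuclear receptor corepressor gene, fell by 1.93 with ATO and had a change of -0.83 ± 0.57 with ATRA (adjusted p = 0.0416 and 0.46). Its ATO libraries had 53.1, 45.7 and 8.2 scaled reads, against 76.2, 113 and 137 in controls, and ATO 3 held only 5 whole reads. Tnfaip2 rose by 0.62 with ATO (adjusted p = 0.0371), to 7926 ± 1551 scaled reads, against 5114 ± 743 in controls.

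Genes that take up, bind and break down retinoids were mostly silent or level. Of 29, 11 were tested. With ATRA, 1 was lower (4.26% over all tested genes) and none higher (1.34%). With ATO none passed, where 1 had an unadjusted p under 0.05 (lower). Over all tested genes 8.55% were lower with ATO by the stricter adjusted test. The medians were -0.09 with ATRA and 0.10 with ATO. Fabp5, which encodes a fatty acid binding protein that also carries retinoic acid, fell by 1.59 with ATRA (SE 0.31, adjusted p = 0.00771), to 519, 565 and 893 scaled reads, against 2444, 1186 and 2450.0 in controls, all higher. With ATO it had 889, 1101 and 1534, a change of -0.75 ± 0.31 (adjusted p = 0.106), and the drugs differed by -0.84 with an adjusted p of 0.628. Retsat, which saturates retinol, had 1873 ± 103 scaled reads with ATRA and 1911 ± 128 with ATO, against 1493 ± 507 in controls, and did not pass. The hydroxylase gene Cyp26a1 breaks down retinoic acid and is a textbook target of it, with the DR5 matches printed above. Cyp26a1 had 26.8, 24.6 and 3.72 scaled reads with ATRA, 8.32, 12.3 and 16.4 with ATO and 7.82, 15.2 and 7.19 in controls. ATRA 1 and ATRA 2 were the highest of the 9 libraries and ATRA 3 was the lowest. Its changes of 0.51 ± 0.66 with ATRA and 0.31 ± 0.66 with ATO did not pass (adjusted p = 0.712 and 0.761).

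RXR also pairs with other nuclear receptors. Of 13 such partners 9 were tested. None passed with ATRA, where 2 had an unadjusted p under 0.05 (both higher). At least 1654 of the 12101 tested genes had such a p with ATRA, in either direction. With ATO 3 were higher, against 6.13% of all tested genes. Nr4a2, an orphan receptor gene, rose by 1.03 (SE 0.26, adjusted p = 0.0224), Nr1h3, which encodes the oxysterol receptor LXRα, by 0.88 (SE 0.23, adjusted p = 0.0257), and the lipid sensor gene Pparg by 0.73 (SE 0.22, adjusted p = 0.0426). Pparg had 416, 451 and 415 scaled reads with ATO, against 288, 186 and 316 in controls. All ATO libraries were above all controls, and the ATRA libraries, at 239, 286 and 229, overlapped the controls. None of the 9 tested partners differed between ATRA and ATO by the adjusted test, where 3 had an unadjusted p under 0.05, all lower with ATRA. Between the drugs, at least 551 of the 12101 tested genes had such a p, in either direction. The partner with the most reads was Nr1h2, which encodes LXRβ and had changes of 0.45 ± 0.18 with ATRA and 0.48 ± 0.18 with ATO (adjusted p = 0.203 and 0.0858).

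All 9 corepressor and all 9 coactivator genes listed were tested. With ATRA none of the 18 passed, and 1 of each list had an unadjusted p under 0.05, both lower. At least 1654 of the 12101 tested genes had such a p with ATRA, in either direction, so these counts do not set the lists apart. With ATO the corepressor gene Tbl1xr1 fell by 0.76 (SE 0.21, adjusted p = 0.0317), with 728, 669 and 642 scaled reads, against 821, 1442 and 1288 in controls. The coactivator gene Carm1, an arginine methyltransferase, rose by 0.66 with ATO (SE 0.18, adjusted p = 0.0299), with 865, 1083 and 802 scaled reads, against 658.5, 531 and 542. Both sets of ranges were apart. Over all tested genes 8.55% were lower and 6.13% higher with ATO, and 4.26% and 1.34% with ATRA. The corepressor list had medians of 0.13 with ATRA and -0.20 with ATO, and the coactivator list -0.28 and -0.57. Sin3a among the corepressor genes, and the methyltransferase gene Prmt1 and the acetyltransferase gene Ep300 among the coactivator genes, had the most reads, and none of these passed with either drug. In ATO 1, 2 and 3, Ep300 had 2762, 2576 and 1044 scaled reads and the coactivator gene Ncoa2 had 652.5, 576 and 294. Both were lowest in ATO 3, where Prmt1 was highest (2788, 3849 and 3945). ATO 3 also had the steepest trend of level on gene length (-0.35 in log2 per doubling of length). The part of that trend in the list medians was not tested.

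**Figure D4:**
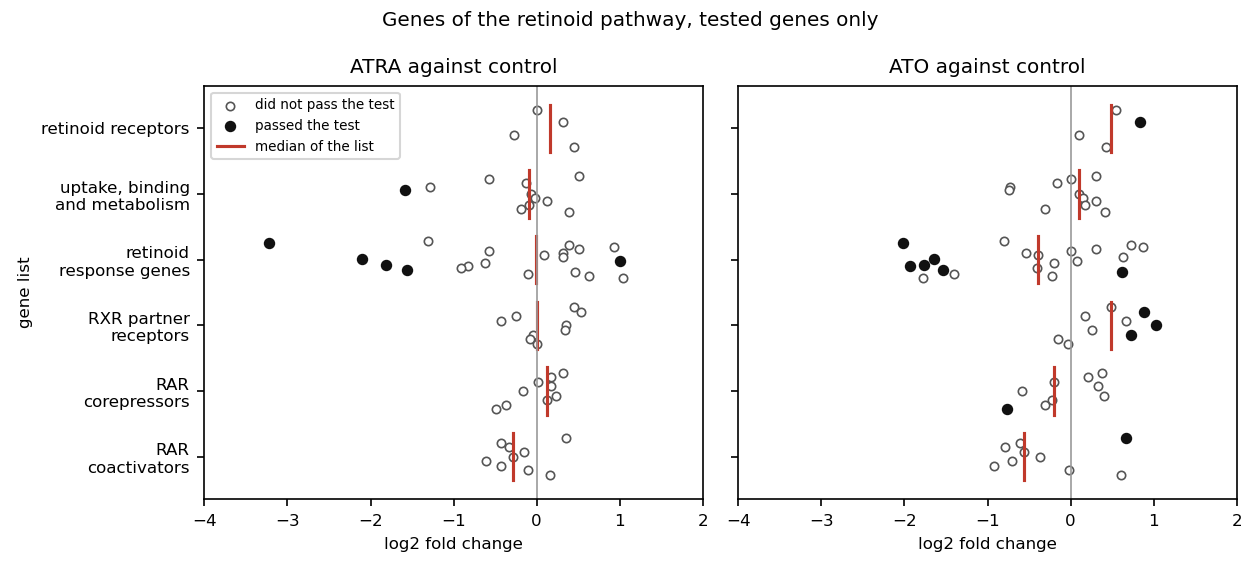
Log2 fold changes (horizontal axis) of every tested gene in 6 lists of the retinoid pathway, for ATRA against control and ATO against control. Filled points passed the test and the red line is the median of the list, which is -0.01 for response genes with ATRA and -0.40 with ATO.

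The genes whose pattern over the 9 libraries was most like that of a called member were found by the root-mean-square distance between centred log2 values. For Tgm2 they were Stab1, Itgax and Padi2, at distances of 0.24 to 0.25, against a median of 0.84 over all other tested genes. Stab1 encodes a scavenger receptor of macrophages and endothelium and Padi2 an enzyme that citrullinates proteins. Padi2 had 57.5, 52.05 and 63.3 scaled reads with ATRA and 60.4, 66.8 and 65.6 with ATO, against 200.3, 186 and 214 in controls, so its treated libraries were all below its controls. For Cd38 they were Sdc4, Stox2 and Ctsl, at 0.39 to 0.48 (median 1.47). Sdc4, a syndecan gene, had 3.83, 8.52 and 6.51 scaled reads with ATRA and 21.9, 25.4 and 11.5 with ATO, against 62.5, 29.5 and 66.5 in controls. In Sdc4, as in Stox2 and in the cathepsin gene Ctsl, all ATRA libraries were below all ATO libraries, whereas in Cd38 they overlapped. For Rarg they were Mlx, Timm10 and Mrto4, at 0.08 to 0.09 (median 0.50). Mlx encodes the partner of the glucose-sensing factors MondoA and ChREBP, and had 2007, 2405 and 2440.0 scaled reads with ATO, against 1542, 1191 and 1150.0 in controls. The distance describes likeness over these 9 libraries, and the genes were picked for it.

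Between genes, levels were compared per kilobase of the longest annotated transcript. In controls the order was Rxrb (1029 ± 236 scaled reads per kilobase), Dhrs3 (551 ± 160.3), Rxra (450.1 ± 52.8), Rara (136 ± 8.70), Rarg (122 ± 22.8), Tgm2 (44.3 ± 16.2), Cd38 (19.0 ± 9.12) and Asb2 (6.24 ± 3.95; SD, n = 3 each). Dhrs3 and Rxra differed by less than the larger of their SDs, and so did Rara and Rarg. With ATO the order of Rara and Rarg was the other way round (209 ± 77.6 and 217.5 ± 36.1), also within the spread. With either drug Asb2 and Cd38 were at the bottom: Cd38 had 1.77 ± 0.62 with ATRA and 4.53 ± 2.04 with ATO, and Asb2 2.12 ± 0.96 and 3.03 ± 1.12, each pair closer than the larger SD. Rara, Rarg, Rxra and Rxrb were present in every group, the lowest mean of the 4 being the 122 of Rarg in controls.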

How the data were processed

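The labels and the authors' methods describe TruSeq polyA libraries, FastQC, cutadapt, STAR alignment to mm9 keeping uniquely aligned reads, HTSeq-count and DESeq2. Versions and gene annotation: not given in the sources used here. The processing notes also name hg19. The deposited values are a signal, read counts that the authors divided by size factors, in one table per drug with the same controls. The authors' fold changes and p-values, also in the tables, were not used. Whole reads were recovered (100% of values within 0.001 of a whole number), rescaled together by median-of-ratios and fitted with limma 3.58.1 (R 4.3.3) on log2(value + 0.5), in a model of 3 groups without covariates and with an intensity trend. Unnamed entries (27, at most 0.173% of reads) were left out. Levels are mean ± SD (n = 3) and changes ± SE with 12.72 degrees of freedom, two-sided. Intervals cover the spread between libraries.

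DESeq2 1.42.0 and edgeR 4.0.16 on the recovered reads, other scalings, filters and pseudocounts, a replicate block, a length correction and leaving out each library were alternatives. The labels give library numbers only. Deviations from group means correlated between same-numbered ATRA and ATO libraries at 0.119, 0.162 and 0.331. Differently numbered libraries reached similar values (0.25 for ATRA 1 with ATO 2 and 0.146 for ATRA 2 with ATO 1), so these values do not show a pairing. Between same-numbered drug and control libraries the range was -0.381 to 0.267. The main model used no pairing, and the replicate block joined same-numbered libraries of all 3 groups. Scripts were tested on simulated data. The members and gene lists were chosen with earlier results of these data known. Named were all members, Rarb and Rxrg, up to 6 called genes of each pathway list by size of change (otherwise the 2 with the highest mean), and the 3 genes most like each called member. One gene under this rule is not reported here. Cyp26a1, Rprd1b, Cxcl12, Col3a1, Bgn, Ncr1, C1qa, C1qb, C1qc and Adgre1 were named after seeing their values. So were Ncoa2, Cd68, Vcam1, Cd5, Lck, Usp18, Uba7, Tnfsf10 and Cebpe. Coordinates are 1-based mm9 positions from GENCODE vM1, and DR5 and DR2 searches used genes present in the RefSeq promoter table (7 of 8 members).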

Additional observations from a re-analysis of the deposited data

How the results depend on the processing

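Tgm2 kept its call with both drugs in all 24 alternatives and Cd38 with ATRA in all 23 that tested it. Some of these alternatives, such as the unadjusted p, could not remove a call. Requiring a mean of at least 50 left Cd38 and Asb2 untested, which gave 1 member called with ATRA. Leaving out 1 library gave 1 to 4 members called with ATO. In ATRA against ATO, 1 member, Cd38, was called by the unadjusted p and 1, again Cd38, without ATRA 3, ATO 3 and control 2 together. Signs reversed only for changes that did not pass: Rara with ATRA was -0.0315 with upper-quartile scaling, -0.025 with TMM and -0.0155 with edgeR, -0.11 without those 3 libraries, and -0.10 to 0.11 leaving out 1 library. Dhrs3 with ATO was -0.084 with upper-quartile scaling, -0.0303 with TMM, -0.34 without those 3 libraries and -0.22 to 0.40 leaving out 1 library. Tgm2 in ATRA against ATO was 0.0371 with upper-quartile scaling, 0.00186 with edgeR and -0.12 to 0.0582 leaving out 1 library. Leaving out 1 library, Rxra with ATO ran from -0.041 to 0.22 and Rxrb in ATRA against ATO from -0.11 to 0.13. The cause was not tested. Over all genes, calls ran across alternatives from 264 to 1654 with ATRA (678 as reported), from 376 to 3252 with ATO (1777 as reported) and from 0 to 551 in ATRA against ATO (0 as reported). The replicate block changed no call of a member and left 0 genes called in ATRA against ATO: Cd38 had an adjusted p of 0.00329 with ATRA and 0.0272 with ATO, and Rarg 0.0271 with ATO. Genes near 10 reads, such as Asb2, are limited by depth.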
